A study of Homo sapiens with 5 samples.

Results

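The regions described here are stretches of the genome where the deposited TEAD4 ChIP-seq list of LX-2 cells places at least 2 overlapping peaks. They were chosen by the positions of the peaks in that list: peaks sharing at least 1 bp were merged, and merged regions made of 2 or more peaks were kept. The 21113 peaks gave 19426 merged regions, of which 1669 held several peaks (8.59%, Wilson 95% interval 8.21 to 8.99%). Of these, 1651 held 2 peaks and 18 held 3 peaks. Together they took in 3356 peaks, or 15.9% of the list.

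LX-2 is an established human hepatic stellate cell line, used in the study as a model of myofibroblastic stellate cells. Each of the 3 TEAD4 ChIP samples and both input samples came from LX-2 cells that had received the solvent DMSO alone, with 1 input for replicates 1 and 2 and another for replicate 3. By the authors' analysis of reproducible peaks only replicates 1 and 3 were concordant enough, so replicate 2 was left out. Replicates 1 and 3 were combined in 1 peak list on hg38, so no peak has a value per replicate. No spread between replicates can be given and the depth of each sample is unknown. All cells were of 1 line and 1 condition, so no comparison between groups of samples was made, and the identity of the cells could not be checked against marker genes in a list of peaks.

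TEAD4 is a transcription factor that binds DNA through its TEA domain and activates genes together with the co-activator YAP1. In activated stellate cells and other fibroblasts, YAP1 and TEAD factors are known for driving matrix, cytoskeletal and adhesion genes, often at distal enhancers that also carry sites for AP-1. In ChIP-seq, the summit of a peak is the base at which the enrichment is placed, and an enhancer bound at neighbouring sites can give several summits.

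The first sequences show the most frequent arrangement of a TEAD motif in these pairs, a match at the stronger summit and none at the weaker one. All sequences are the plus strand of hg38, 5′ to 3′. Capitals mark the TEAD motif (ACATTCC, or GGAATGT on the other strand) and the AP-1 motif (TGACTCA, or TGAGTCA on the other strand). In the window near CCN1, a matricellular protein gene and classical YAP1 target, the stronger summit (signal value 573.0) is base 44 and the weaker (35.7) lies 212 bp further on. In the window near SMAD3, which encodes a transducer of TGF-beta signals, the stronger summit (197.9) is base 60 and the weaker (54.4) base 262. As a background, windows within 100 bp of positions 2000 bp away from the strongest summits of several-peak regions, on each side, held the TEAD motif in 3.21% and the AP-1 motif in 3.54% of cases. Motifs at the summits of a pair were counted within 50 bp, and flanks of pairs with that window held each motif in 1.55% of cases.
CCN1 region, chr1:85607417-85607716: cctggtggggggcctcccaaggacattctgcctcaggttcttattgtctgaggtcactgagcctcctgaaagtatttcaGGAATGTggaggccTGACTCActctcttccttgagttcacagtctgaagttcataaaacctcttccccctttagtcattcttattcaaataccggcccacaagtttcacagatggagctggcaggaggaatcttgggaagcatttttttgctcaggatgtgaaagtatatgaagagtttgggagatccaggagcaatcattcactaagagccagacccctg
SMAD3 region, chr15:67049656-67049955: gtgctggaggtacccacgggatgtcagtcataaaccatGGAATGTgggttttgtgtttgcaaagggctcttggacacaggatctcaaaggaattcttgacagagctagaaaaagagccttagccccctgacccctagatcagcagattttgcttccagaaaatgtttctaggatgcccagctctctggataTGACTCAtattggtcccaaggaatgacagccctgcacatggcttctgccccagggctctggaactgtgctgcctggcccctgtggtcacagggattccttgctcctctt

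The next windows hold a TEAD motif within 50 bp of both summits, which occurred in 11 of 1651 pairs. DLG4 was taken by the naming rule, and the 3 others were chosen after their values were seen, as the strongest such pairs. Names give the protein-coding gene with the nearest transcription start site (TSS), which need not be the gene regulated. The summits are bases 59 and 263 near TXNRD1 (signal values 335.8 and 74.9), bases 51 and 252 near CSNK2A3 (314.8 and 103.7), bases 40 and 240 near CDC42EP3 (269.0 and 49.4), and bases 41 and 273 near DLG4 (53.0 and 45.9). The TXNRD1 window holds 3 TEAD motifs and 1 AP-1 motif.
TXNRD1 region, chr12:104219589-104219888: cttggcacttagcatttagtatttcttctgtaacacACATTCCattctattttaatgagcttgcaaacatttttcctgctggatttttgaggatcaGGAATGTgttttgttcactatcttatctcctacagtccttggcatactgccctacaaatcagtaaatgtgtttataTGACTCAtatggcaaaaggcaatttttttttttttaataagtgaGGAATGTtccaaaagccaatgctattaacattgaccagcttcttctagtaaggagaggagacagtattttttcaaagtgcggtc
CSNK2A3 region, chr11:11350071-11350370: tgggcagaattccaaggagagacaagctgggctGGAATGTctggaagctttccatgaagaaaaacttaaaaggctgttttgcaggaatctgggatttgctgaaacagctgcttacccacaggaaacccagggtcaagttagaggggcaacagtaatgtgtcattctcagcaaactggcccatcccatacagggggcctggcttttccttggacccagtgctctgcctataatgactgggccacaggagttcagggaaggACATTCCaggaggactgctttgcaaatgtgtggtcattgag
CDC42EP3 region, chr2:37689153-37689452: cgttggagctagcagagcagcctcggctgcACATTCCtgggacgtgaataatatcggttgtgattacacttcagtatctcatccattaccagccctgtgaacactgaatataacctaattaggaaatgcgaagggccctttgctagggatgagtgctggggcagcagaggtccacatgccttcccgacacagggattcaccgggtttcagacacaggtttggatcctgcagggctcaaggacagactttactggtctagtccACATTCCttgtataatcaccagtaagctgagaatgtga
DLG4 region, chr17:7215187-7215486: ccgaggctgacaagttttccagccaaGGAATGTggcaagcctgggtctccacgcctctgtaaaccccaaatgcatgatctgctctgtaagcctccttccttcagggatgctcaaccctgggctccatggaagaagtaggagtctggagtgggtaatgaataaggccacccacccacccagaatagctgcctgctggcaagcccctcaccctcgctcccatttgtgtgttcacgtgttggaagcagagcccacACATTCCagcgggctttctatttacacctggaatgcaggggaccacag

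The last windows come from regions of 3 peaks with a TEAD motif at 2 summits. Near GREM1, which encodes the BMP antagonist gremlin, the outer summits (signal values 100.9 and 56.5) are bases 71 and 64 of their windows. Near CLPTM1L, the first and second summits (125.6 and 86.0) are bases 48 and 247 of a tandem repeat in an intron. Its 10 TEAD motifs in this window start 29 bp apart without exception.
GREM1 region, summit 1, chr15:32704301-32704400: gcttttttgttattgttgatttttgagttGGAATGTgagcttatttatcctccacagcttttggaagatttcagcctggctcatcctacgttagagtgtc
GREM1 region, summit 3, chr15:32704852-32704951: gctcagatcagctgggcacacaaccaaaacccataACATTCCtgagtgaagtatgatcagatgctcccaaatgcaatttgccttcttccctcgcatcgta
CLPTM1L region, chr5:1327877-1328175: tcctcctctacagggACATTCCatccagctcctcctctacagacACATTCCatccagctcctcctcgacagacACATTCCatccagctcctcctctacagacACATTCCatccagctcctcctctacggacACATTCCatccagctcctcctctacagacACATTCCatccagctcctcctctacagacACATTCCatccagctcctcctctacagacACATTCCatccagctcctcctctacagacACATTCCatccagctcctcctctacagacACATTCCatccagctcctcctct

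Summits of the same region lay close to 200 bp apart. Across the 1651 regions of 2 peaks, the spacing ran from 199 to 458 bp, with quartiles of 200 and 206 bp and a median of 202 bp. In 1400 of them (84.8%, 83.0 to 86.5%) the summits were at most 210 bp apart, and 255 were at exactly 199 bp and 263 at 200 bp. Spacings over 250 bp occurred in 73 pairs (4.42%) and over 300 bp in 28. In the whole list no neighbouring summits were closer than 199 bp. Of the 1424 neighbours 199 to 210 bp apart, 1411 fell in a shared region, and of the 433 neighbours over 500 and up to 1000 bp apart none did. The sources used here name neither the peak caller nor a minimum distance between summits, and the part of such a setting in the spacing was not tested.

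The intervals overlapped by a median of 236 bp (range 3 to 881 bp), and in 184 pairs (11.1%, 9.72 to 12.8%) both peaks had the same start and end and differed by their summit. The merged 2-peak regions were 311 to 883 bp long, with a median of 643 bp, against a median of 444 bp for regions of a single peak. A width of 444 bp was the most common in the list. It was found in 84.3% of weaker peaks, 49.6% of stronger peaks and 60.8% of single peaks. At the edge of the rule, the 10 pairs with the least overlap (3 to 21 bp) had a median spacing of 270 bp and a median ratio of signal values of 1.87. The 10 closest neighbouring regions that did not merge (gaps of 3 to 17 bp) had a median distance between summits of 218.5 bp and a median ratio of 2.01.

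The peaks of a pair were unequal. The signal value, the peak caller's enrichment measure for each peak, had a median of 94.6 (quartiles 57.4 and 183.6) for the stronger peak and of 18.0 (10.6 and 35.4) for the weaker peak. Single peaks had a median of 71.0 (49.1 and 115.3) and the list as a whole 68.1. The ratio of stronger to weaker ranged from 1.00 to 102.4, with a median of 5.13 and quartiles of 3.03 and 8.61. It was at least 2 in 87.2% of pairs, at least 5 in 51.3% and at least 10 in 19.9%, and under 1.5 in 108 pairs (6.54%). Across the 1651 pairs, whose peaks share a region and the same libraries, Spearman's rho was 0.43 between the signal values and -0.14 between spacing and ratio. These are values of the list that defined the regions, and no test was made on them.

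The weaker peaks held most of the list's highest q-values. Of 674 peaks with a q-value above 0.05, 653 were the weaker peak of a pair, 8 belonged to regions of 3 peaks and 13 were single peaks. Thus 39.6% of weaker peaks (37.2 to 41.9%) were above 0.05, against 0 of 1651 stronger peaks (interval up to 0.232%) and 0.0732% of single peaks. The q-value followed the signal value, since the highest signal value with a q-value above 0.05 was 14.51 and the lowest with a q-value of 0.05 or less was 14.53. The IDR score, which measures how well the rank of a peak repeats between replicates, was at its top of 1000 for 84.5% of stronger, 62.5% of weaker and 76.6% of single peaks. All peaks of the list had passed the authors' IDR selection, and the lowest score was 830 in stronger, weaker and single peaks alike. Without peaks above a q-value of 0.05, which is a filter chosen after the values were seen, 1013 regions of several peaks remained.

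The weaker summit lay almost always at the higher genome coordinate. This was so in 1613 of 1651 pairs (97.7%, 96.9 to 98.3%), and it held in 97.8% of 813 pairs whose nearest protein-coding gene is on the plus strand and 97.6% of 838 pairs with that gene on the minus strand. The side depended on the spacing. At spacings up to 210 bp the weaker summit was at the higher coordinate in 1399 of 1400 pairs. Over 210 and up to 250 bp it was there in 93.8% of 178 pairs, over 250 and up to 300 bp in 75.6% of 45 pairs, and over 300 bp in 46.4% (29.5 to 64.2%) of 28 pairs. Neighbouring peaks of different regions over 500 and up to 1000 bp apart showed the weaker peak at the higher coordinate in 49.9% of 433 cases, with a median ratio of 1.85. The 38 pairs with the weaker summit at the lower coordinate had a median spacing of 267.5 bp and a median ratio of 1.25. Among the 998 pairs whose weaker peak had a q-value of 0.05 or less, the share was 96.4%. The part of the peak calling in this order was not tested.

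**Figure D1:**
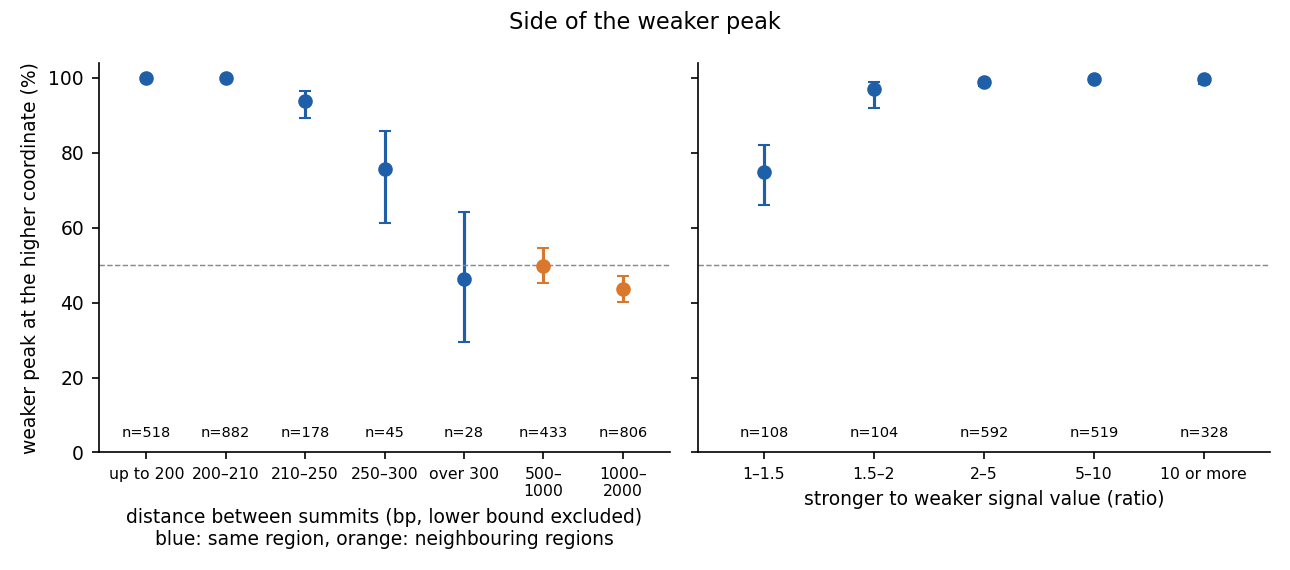
Share of pairs whose weaker peak lies at the higher coordinate, by distance between summits (left) and by ratio of signal values (right), with Wilson 95% intervals, the number of pairs and a dashed line at 50%. The share falls from 100% of 518 pairs at spacings up to 200 bp to 46.4% above 300 bp, and neighbouring regions over 500 and up to 1000 bp apart (orange) sit at 49.9%.

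Close and wide pairs differed in these values, which are given with no test since the spacing comes from the list itself. Pairs up to 210 bp apart had a median ratio of 5.54, and 41.6% of their weaker peaks had a q-value above 0.05. The 73 pairs over 250 bp apart had a median ratio of 1.54, and 16.4% of their weaker peaks (9.66 to 26.6%) had a q-value above 0.05. Their stronger peaks were lower, with a median signal value of 46.4, and their weaker peaks higher, with a median of 29.7. Over 250 bp, the TEAD motif was within 50 bp of 9 stronger and 7 weaker summits.

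Sequence was not used to choose the regions, so motifs at the summits of a pair were compared within each region. The TEAD motif ACATTCC was within 50 bp of the stronger summit in 307 of 1651 pairs (18.6%, 16.8 to 20.5%) and of the weaker summit in 69 (4.18%, 3.32 to 5.26%). It was at the stronger summit alone in 296 pairs and at the weaker alone in 58, a ratio of 5.10 (exact two-sided McNemar test, p = 1.42e-39, adjusted over 2 motifs 2.85e-39). The AP-1 motif, the site of FOS and JUN dimers, was found at 17.8% of stronger and 4.48% of weaker summits, at the stronger alone in 279 pairs and at the weaker alone in 59 (exact two-sided McNemar test, p = 2.41e-35, adjusted 2.41e-35). For comparison, 21.8% of single peaks had the TEAD motif and 18.4% the AP-1 motif within 50 bp of the summit. Single peaks had 3.44 TEAD matches per kb at 0 to 25 bp from the summit and 0.149 at 200 to 225 bp. Stronger and weaker are named by signal value, and most weaker summits lie about 200 bp from the stronger. The test thus cannot tell a weaker bound site from a position beside a single one. Without peaks above a q-value of 0.05, a filter chosen after the values were seen, 1002 pairs remained. Their ratios were lower, at 3.667 for the TEAD motif and 3.455 for the AP-1 motif (exact two-sided McNemar test, p = 1.97e-19 and 4.06e-15). In the 251 pairs over 210 bp apart, a selection made after the spacing was seen, the ratio for the TEAD motif was 2.13 (exact two-sided McNemar test, p = 0.0154). Among peaks with a signal value above the median of the list, the 122 remaining pairs gave a ratio of 1.92 that missed the threshold (exact two-sided McNemar test, p = 0.0730).

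The weaker summit was also compared with the mirror position, the base at the same distance from the stronger summit on its other side, a comparison added after the spacing was seen. The TEAD motif was within 50 bp of 4.18% of weaker summits and 1.39% of mirror positions, with 68 pairs against 22 (exact two-sided McNemar test, p = 1.25e-06, adjusted 2.50e-06). The AP-1 motif was at 4.48% against 2.85%, with 73 pairs against 46 (exact two-sided McNemar test, p = 0.0168). The AP-1 difference was lost within 25 bp (ratio 1.35, exact two-sided McNemar test, p = 0.306) and in pairs whose signal values differed at least 2-fold (ratio 1.24, p = 0.353, same exact test). Windows of equal width 2000 bp away held each motif in 1.55% of windows. Towards the weaker summit, TEAD matches per kb were 0.509 at 100 to 125 bp from the stronger summit, 0.363 at 200 to 225 bp and 0.557 at 275 to 300 bp. On the other side they were 0.242 at 100 to 125 bp and 0.194 at 200 to 225 bp. Matches were thus more frequent along that whole side, and the comparison does not place them at the weaker summit itself.

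The other motifs were described without a test. The RUNX motif TGTGGTT, which reads AACCACA on the other strand, was at 6.42% of stronger summits, 2.85% of weaker summits and 1.73% of flanks. The E-box CAGATG, which reads CATCTG on the other strand, was at 8.30%, 7.51% and 6.97% in the same order. The reversed TEAD motif CCTTACA, which reads TGTAAGG on the other strand and has the same bases as the TEAD motif, was at 1.09%, 0.666% and 0.999%. Neither a TEAD nor an AP-1 motif was at either summit in 1001 pairs (60.6%), which says only that these exact letters were not in those windows.

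The motif shares differed between classes of the ratio of the signal values. The signal value of the stronger peak moved with that ratio (Spearman's rho 0.49 over the 1651 pairs), with medians of 56.6, 73.0, 92.6 and 194.8 from the lowest to the highest class, so the ratio and the height of the stronger peak cannot be told apart here. In the 328 pairs with a ratio of at least 10, the TEAD motif was at 26.2% of stronger and 1.22% of weaker summits. For ratios of 5 to 10 the shares were 19.9% and 1.93%, and for ratios of 2 to 5 they were 16.9% and 4.22%. In the 212 pairs with a ratio under 2 the order turned, with 8.49% (5.44 to 13.0%) of stronger and 14.2% (10.1 to 19.5%) of weaker summits. These intervals overlap, but they take no account of the pairing, and no paired test was made in this class. The AP-1 motif was at 16.0% of stronger and 10.4% of weaker summits in those pairs, and at 19.8% and 3.66% where the ratio was at least 10. The difference between these classes was not tested. Motif centres lay at a median of 1 bp from the stronger summit (quartiles -21 and 23 bp, 414 TEAD motifs within 100 bp) and -18.5 bp from the weaker summit (quartiles -58.8 and 32 bp, 144 motifs), where negative values point to lower coordinates.

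At their strongest summit, regions of several peaks were hard to tell from single peaks by motif. The TEAD motif was within 100 bp of that summit in 23.0% of 1669 several-peak regions and 24.4% of 17757 single-peak regions (odds ratio 0.927, 95% interval 0.823 to 1.04). A two-sided Fisher's exact test gave p = 0.221, or 0.515 adjusted over 7 tests. With the signal value of the strongest peak as a covariate in a logistic model the odds ratio was 0.807 (adjusted p = 0.00367), and within 50 bp it was 0.831 (Fisher's exact test, adjusted p = 0.0262), so this call depended on the setting. Each p-value of such an alternative was adjusted together with the main p-values of the other tests, not within its own setting. The AP-1 motif was at 26.4% and 26.9% (odds ratio 0.976, 0.871 to 1.09, p = 0.707 by the same exact test). The RUNX motif (10.1% and 9.84%), the E-box (16.1% and 16.9%) and the reversed TEAD motif (2.16% and 2.03%) had odds ratios of 1.03, 0.944 and 1.07, none of which passed the adjusted threshold of 0.05.

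Clusters of TEAD motifs were rare in both kinds of region. At least 2 matches of ACATTCC lay within 250 bp of the strongest summit in 67 several-peak regions (4.01%) and 564 single-peak regions (3.18%), an odds ratio of 1.28 (0.985 to 1.65). Fisher's exact test gave p = 0.0707, adjusted 0.247. Without peaks above a q-value of 0.05 the odds ratio was 1.56, with an adjusted p of 0.0262 by Fisher's exact test, whereas it was 1.09 (adjusted p = 0.717) in a logistic model with the signal value of the strongest peak, whose median was 94.9 in several-peak and 71.0 in single-peak regions. At least 5 matches were found in 3 several-peak and 6 single-peak regions. The CLPTM1L repeat shown above had the most, with 14 in that window.

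Most of the regions lay far from promoters. The strongest summit was in an intron of a protein-coding gene in 47.6% of several-peak regions, between genes in 30.7%, in a long non-coding RNA gene alone in 17.0% and in an exon of a protein-coding gene in 4.73%. Single-peak regions had 48.2%, 31.6%, 14.4% and 5.86%. The strongest summit was within 2.5 kb of a TSS in 21.9% of several-peak and 24.9% of single-peak regions (odds ratio 0.848, 0.752 to 0.957). Here Fisher's exact test gave p = 0.00747 and, adjusted over 7 tests, 0.0523. The adjusted value fell under 0.05 with TSSs of protein-coding genes alone (odds ratio 0.811, Fisher's exact test, adjusted p = 0.0153) and with peaks of the top IDR score (0.710, Fisher's exact test, adjusted p = 1.39e-04). The odds ratio moved towards 1 with the signal value as a covariate (0.880, logistic model, adjusted p = 0.247), with at least 100 bp of overlap (0.886, Fisher's exact test, adjusted p = 0.247) and without pairs of identical intervals (0.902, same exact test, adjusted p = 0.386). The median distance to a TSS was 13186 bp against 11019 bp. In the 360 pairs near a TSS, the stronger summit was the nearer to it in 184 (51.1%, 46.0 to 56.2%). By chromosome, the share of regions with several peaks ran from 4.98% on chromosome 22 to 10.7% on chromosome 5, over the 23 chromosomes with at least 100 regions.

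The 10 several-peak regions with the highest signal values (700.2 to 1074) all lay at least 17587 bp from the nearest protein-coding TSS. The strongest, at chr5:37272452-37273080, was 20393 bp from NUP155, a nuclear pore gene, and is an exception in its order, with 36.3 at the lower and 1074 at the higher coordinate, 232 bp apart. A pair near SLC25A26 (chr3:66115772-66116276) had the highest ratio of the list, 748.2 against 7.31 (102.4). That ratio rests on a weaker peak with a q-value above 0.05, near the lowest signal value of weaker peaks (6.57). Near HOXC13, a homeobox gene, a pair at chr12:53844899-53845438 had 726.2 and 93.6, with a TEAD motif at the stronger summit. A TEAD motif was at a summit in 2 of the 10 regions and an AP-1 motif in 1. Over all 1651 pairs, the TEAD motif was at 18.6% of stronger and 4.18% of weaker summits, and the AP-1 motif at 17.8% and 4.48%. These shares are per summit, whereas the counts for the 10 regions take any summit of a region. The widest pair, with summits 458 bp apart at chr1:115545735-115546569 near VANGL1, a planar cell polarity gene, had signal values of 207.1 and 142.9.

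The 18 regions of 3 peaks kept the same order in most cases. The first peak by coordinate was the strongest in 15, the middle in 2 and the last in 1, and in 9 the signal value fell from each peak to the next. Their 36 spacings ran from 199 to 379 bp with a median of 242 bp, of which 11 were at most 210 bp and 16 over 250 bp. Near SLC38A2, an amino acid transporter gene, the region at chr12:46494293-46494878 in a long non-coding RNA gene had 36.3, 859.9 and 42.1 from lower to higher coordinate, with a TEAD motif at the middle summit. The middle peak was 23.7 times the lowest of the region. Near SEMA5A, a semaphorin gene, 339.2 was followed by 115.8 and 97.2 (chr5:9348222-9349089). Near DAP the outer peaks of 241.9 and 150.2 enclosed 22.9, with spacings of 308 and 289 bp (chr5:10691911-10692774). A second region near CCN1, of 3 peaks at chr1:85612768-85613617, had 116.3, 28.1 and 21.1, with a TEAD motif at the first summit. A TEAD motif was at 1 or more summits of 7 of the 18 regions. It was at the strongest summit in 6, beside 18.6% of stronger summits over all 1651 pairs.

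Gene lists were described by counts of genes with a several-peak region within 50 kb of a TSS, a share that was 8.83% over 20020 protein-coding genes (1767 genes). It also depends on whether a gene has any TEAD4 region nearby, which 55.2% did, and among those genes the share was 16.0%. Neither share takes account of how many TEAD4 regions lie near a gene. Of 23 YAP-TEAD target genes, 21 had any region and 8 a several-peak region. Of 18 integrin and focal adhesion genes, all had a region and 6 a several-peak region. The counts were 3 of 12 for fibrillar collagens and lysyl oxidases, 4 of 18 for matrix glycoproteins, 4 of 18 for contractile genes of myofibroblasts, 3 of 14 for TGF-beta signalling, 2 of 10 for TEAD factors and their cofactors, 1 of 10 for AP-1 subunits and 1 of 4 for the RUNX family. In the same order, 12, 14, 16, 13, 7, 10 and 2 genes of these lists had any region. Of 15 hepatocyte genes, 2 had any region and 1 (ASGR1) a several-peak region. The lists were written with earlier results of these data known and no test was made.

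Up to 4 genes of each list, in order of the signal value of their strongest several-peak region, gave 27 regions, all of 2 peaks. They are given here by the listed gene within 50 kb, which was also the nearest protein-coding gene in 21 of them. The weaker peak was at the higher coordinate in 26 of them, beside 97.7% of all 1651 pairs. It had a q-value above 0.05 in 8, beside 39.6% of all pairs. These 8 were the pairs of CRIM1, DOCK5, COL1A2, SPARC, TNC, ITGA1, BATF3 and RUNX1. The ratios of the 27 regions ran from 1.04 to 53.6 with a median of 6.62. The q-value followed the signal value and the ratio moved with it, so the choice by signal value bears on both. A TEAD motif was at the stronger summit in 5 and at the weaker in 2, and an AP-1 motif in 7 and 2. Over all 1651 pairs the shares were 18.6% and 4.18% for the TEAD motif and 17.8% and 4.48% for the AP-1 motif.

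**Figure D2:**
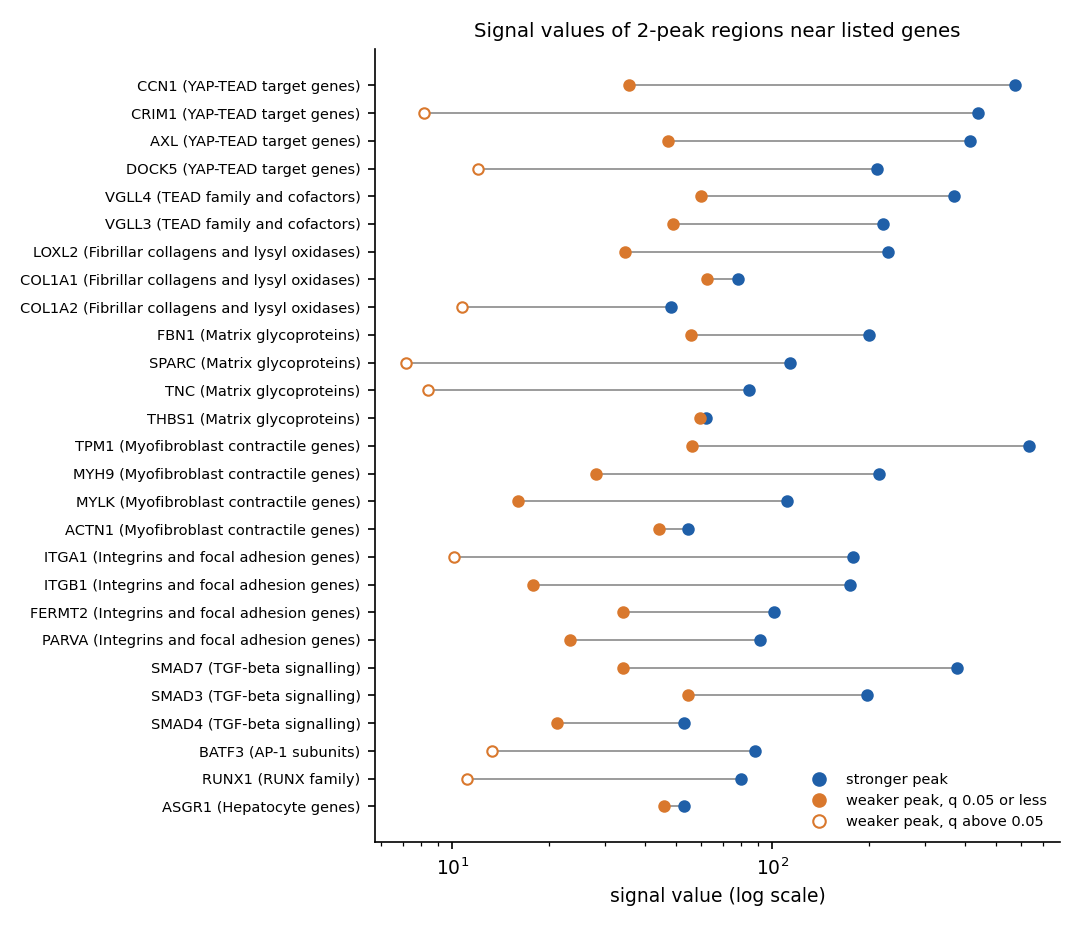
Signal value (log scale) of the stronger (blue) and weaker peak (orange, open where the q-value is above 0.05) in the 27 regions of 2 peaks near listed genes, with the list in brackets. The stronger peaks run down from TPM1 (631.8) and CCN1 (573.0), and 8 of the 27 weaker peaks are open.

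Among targets of YAP1, the CCN1 pair shown above lay 25997 bp from the TSS at chr1:85607024-85607734, with a ratio of 16.1. The pair in an intron of CRIM1, which encodes a membrane protein that binds BMPs (chr2:36372051-36372467), had 438.9 against 8.18, the highest ratio of the 27. The pair near AXL, a receptor tyrosine kinase gene, was 562 bp from the TSS in an intron (chr19:41226010-41226401), with 415.7 and 47.3 and an AP-1 motif at the stronger summit. DOCK5, an activator of RAC GTPases, had 211.6 and 12.1. Of the TEAD cofactors, VGLL4, which competes with YAP1 for TEAD, had 370.3 and 59.7 at summits 199 bp apart, and VGLL3 had 222.4 and 48.9.

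Pairs near matrix genes ran from level to strongly unequal. Near COL1A1, a chain of type I collagen, a pair 8780 bp from the TSS (chr17:50178120-50178762), with SGCA nearer at 3169 bp, had 78.0 and 62.6, and both the TEAD and the AP-1 motif lay at the weaker summit and none at the stronger. For COL1A2, the other chain, the values were 48.3 and 10.7, with the weaker peak above a q-value of 0.05. THBS1, which encodes thrombospondin-1 and can activate TGF-beta, had a pair 48461 bp from its TSS in an intron of FSIP1 (chr15:39642058-39642750), with 59.5 and 62.1 at summits 249 bp apart, the only 1 of the 27 with the stronger peak at the higher coordinate. SPARC, which encodes osteonectin, had its pair 24 bp from the TSS (chr5:151686849-151687366), with 113.9 and 7.18 and a TEAD motif at the stronger summit. LOXL2, a collagen cross-linking enzyme gene, had 229.9 and 34.7. A pair 49460 bp from FBN1, the fibrillin-1 gene, had 200.6 and 55.6, and CEP152 was slightly nearer at 46833 bp. TNC, the tenascin-C gene, had 84.3 and 8.37.

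Contractile and adhesion genes showed both kinds of pair. The pair 46040 bp from TPM1, a tropomyosin gene, had 631.8 and 56.1 with summits 243 bp apart (chr15:63107862-63108557), and the nearest gene was LACTB at 13685 bp. MYH9, the gene of non-muscle myosin IIA, had 215.3 and 28.2 at 1822 bp from its TSS, and a pair 28479 bp from MYLK, the myosin light chain kinase gene, had 111.5 and 16.0, with HACD2 nearer at 2121 bp. ACTN1, an alpha-actinin gene, had nearly level peaks of 54.4 and 44.1 at 385 bp from the TSS (chr14:68979603-68980247). ITGA1, the integrin alpha-1 gene, had 179.2 and 10.2, with a TEAD and an AP-1 motif at the stronger summit and the weaker peak above a q-value of 0.05. ITGB1, the integrin beta-1 gene, had 175.2 and 17.9. FERMT2, which encodes kindlin-2, had 101.0 and 34.2, and PARVA, the alpha-parvin gene, 91.5 and 23.4.

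In TGF-beta signalling, SMAD7, an inhibitor of the pathway, had 377.7 and 34.1, SMAD3 the pair shown above, and SMAD4, the common partner of the SMAD transducers, 53.0 and 21.2 at 1435 bp from its TSS. BATF3, an AP-1 family gene, had 88.0 and 13.3. RUNX1 had 79.9 and 11.1 with an AP-1 motif at the stronger summit. For the hepatocyte receptor gene ASGR1, the pair lay 35663 bp away in an intron of DLG4 and is the DLG4 window above, with TEAD motifs at both summits.

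Some genes had many such regions near them. In all, 1333 genes were the nearest protein-coding gene of at least 1 several-peak region and 236 of at least 2. TLE4, a co-repressor gene, was nearest to 6, out of 30 regions of any kind. ANKRD55, IQCJ-SCHIP1, IRS1 (insulin receptor substrate 1), PDE4D (a cAMP phosphodiesterase) and THSD4 were each nearest to 5, out of 16, 20, 22, 27 and 20 regions of any kind in that order, beside 8.59% of regions with several peaks over the list. The 6 pairs of TLE4 had stronger signal values from 103.2 to 525.0, and 5 of them lay between genes, 210945 bp or more from the TSS. Around PDE4D all 5 pairs were in introns, 18486 to 50116 bp from a TSS, and a pair of 339.0 and 45.0 was followed by a neighbouring pair of 192.7 and 46.1. Near IRS1 the pairs ranged from 625.8 and 148.5 (chr2:226477940-226478475) to 27.8 and 14.5, and a pair at 63.4 and 59.4 had its summits 266 bp apart. No test was made on these counts.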

How the data were processed

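TEAD4 ChIP-seq came from 3 biological replicates of DMSO-treated LX-2 cells with 2 input samples. The authors mapped reads to hg38 with Chromap and applied the ENCODE IDR pipeline. It found only replicates 1 and 3 concordant enough, and it was run again on these. The caller is not given in the sources used here. In the deposited list of 21113 peaks, each peak has the authors' scaled IDR score, a signal value, a −log10 q-value and the offset of its summit, meanings that were inferred from the layout. In 4 peaks the offset reaches the end of the interval. Depth per sample is unknown.

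Peaks sharing at least 1 bp were merged. Members and gene lists were chosen with earlier results of these data known. All intervals end inside the hg38 chromosomes used here. TSSs and genes came from GENCODE release 44, and regions were named by the nearest protein-coding TSS. Matches on either strand were counted up to 100 bp from the strongest summit, or up to 50 bp from each summit of a pair. Fisher's exact tests, two-sided, compared several-peak with single-peak regions (Benjamini-Hochberg over 7 tests), and exact two-sided McNemar tests compared the summits of a pair (over 2 motifs). Intervals of shares are Wilson 95% intervals, which cover counting error over regions only, and neighbouring regions are not independent. Covariates entered logistic models. Alternatives changed the overlap, the peaks kept, the window, the TSSs and the summit. The p-value of an alternative replaced its main p-value, and it was adjusted with the main p-values of the other tests.

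Named regions were the 10 with the most peaks, the 10 with the highest signal value, the 3 widest and the 3 with the highest ratio, up to 4 genes of each list in order of signal value, and the 5 genes nearest to the most regions. Others were chosen after their values were seen. Sequences were printed only off chromosome 8, outside UTRs and in windows of at most 300 bp. The code was tested on simulated data with planted motifs. Tests ran in scipy 1.17.1 and statsmodels 0.14.6 under Python 3.11.15, with pandas 2.3.3, numpy 2.4.6 and, for figures, matplotlib 3.10.9.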

Additional observations from a re-analysis of the deposited data

How the results depend on the processing

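For 12 results, 98 alternatives were computed, 22 of them chosen after seeing the data. Of these, 72 kept the direction and side of the threshold, or a count within 1.5 times. No paired analysis was possible because both replicates were merged into 1 list, which also kept any replicate from being left out. Depth per sample is unknown.

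The number of several-peak regions was 1035 with the top IDR score, 123 with signal values above the median and 1013 with q-values of 0.05 or less. Taking the weakest summit of each region gave odds ratios of 0.271 for the TEAD motif and 0.263 for AP-1, both now past the threshold, 0.559 for RUNX, turned in direction and past the threshold (adjusted p = 6.41e-08, Fisher's exact test), 0.795 for the reversed motif, turned in direction, and 0.845 for a TSS within 2.5 kb, past the threshold. For the TEAD motif, the signal covariate (0.807) and a 50 bp window (0.831) passed the threshold, and a 250 bp window turned the direction (1.10), as it did for AP-1 (1.08) and the reversed motif (0.898). The direction for RUNX turned without identical intervals (0.993) and with the signal (0.986) or GC covariate (0.991), for the reversed motif without identical intervals (0.998) and with q-values of 0.05 or less (0.968), for the E-box with signal values above the median (1.18), and for at least 2 TEAD motifs within 100 bp (0.987). With q-values of 0.05 or less, at least 2 TEAD motifs passed the threshold (1.56). Proximity to a TSS passed it with the top IDR score (0.710) and with protein-coding TSSs (0.811). Within pairs, the TEAD ratio of stronger to weaker summits missed the threshold with signal values above the median (1.92), and the AP-1 ratio of weaker summit to mirror position missed it within 25 bp (1.35) and at ratios of at least 2 (1.24). Fewer regions enter the alternatives that leave out peaks. For the rest the cause was not tested.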
